A study of Mus musculus with 24 samples.

Results

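The mitochondrial ribosomal proteins were taken as every protein-coding gene of the count table whose GENCODE M21 symbol begins with Mrpl or Mrps followed by a digit. This rule gave 78 of 39056 genes, 49 named for the large ribosomal subunit (Mrpl) and 29 for the small subunit (Mrps). The low-count filter kept 77 of them among 18789 tested genes. The remaining one, Mrpl53, had 17 reads over all libraries, and 88.0% of its exonic length overlaps exons of other genes on the same strand. The 5 further proteins of this ribosome that carry other symbols, Dap3, Ptcd3, Chchd1, Aurkaip1 and Gadd45gip1, were kept apart as a comparison list.

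Female NZBWF1/j mice, which develop a lupus-like disease, gave the cells, and 4 CD4 T subsets sorted from them were profiled by total RNA sequencing. The treated mice were given recombinant mouse OX40L (ligand of the costimulatory receptor OX40) and JAG1 (Jagged-1, a Notch ligand) intraperitoneally, each at 2 mg/kg in 3 weekly doses from 23 weeks of age, and the control mice were given PBS. All mice were killed in week 26. Among CD4+ cells, the gates took Tconv (conventional) as CXCR5- GITR-, Treg (regulatory) as CXCR5- GITR+, TFH (follicular helper) as CXCR5+ PD1Hi with no or little GITR, and TFR (follicular regulatory) as CXCR5+ PD1Hi GITRHi. Each of the 8 groups of subset and treatment held 3 libraries. No label names the organ of origin or says whether each library is its own mouse. The p-values therefore rest on the spread between libraries, which may be technical.

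Mitochondrial ribosomal proteins are encoded in the nucleus, made in the cytosol and imported into mitochondria. There they assemble with mitochondrially encoded ribosomal RNAs into the ribosome that translates the mRNAs of the mitochondrial genome, all of which encode subunits of the respiratory chain or ATP synthase. Some members descend from proteins of bacterial ribosomes and others are found only in mitochondrial ribosomes. In T cells, activation and differentiation are accompanied by mitochondrial growth, and synthesis of the respiratory chain needs both this ribosome and its nuclear-encoded partners.

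Library totals ran from 24.7 to 53.8 M (1e6) counts in 18 libraries and from 2.54 to 15.2 M in the control TFH and control TFR libraries. Levels are given in CPM, counts per 1e6 counts of the library after TMM scaling. Foxp3, the Treg lineage factor, averaged 354 to 561 CPM in the Treg and TFR groups, 47.3 to 50.8 CPM in the TFH groups and 5.81 to 11.9 CPM in the Tconv groups. Cxcr5 averaged 53.7 to 261 CPM in the follicular groups and 1.83 to 40.9 CPM in the others. Kidney transcripts were found in 5 libraries (control Tconv 1 and 2, treated Treg 3, treated TFH 3 and treated TFR 1), with 8 proximal tubule markers summing to 62.0 to 553 CPM, against at most 18.2 CPM elsewhere. Where leaving out these 5 libraries changed a count of members called by the test, both counts are given. That fit leaves a single control Tconv library, which is assumed to vary like the other groups.

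The promoters of the family were read from RefSeq windows (GRCm38.p6) that run from 250 bases before to 50 bases after a gene's start and that matched 69 of the 78 members by symbol. A gene was counted if any of its windows held the motif, and 3 members had several windows. An ETS-type motif (CCGGAAG, both strands) was found in 26 of these 69 members (37.7%), against 9.93% of all 27025 genes with a window. Those genes were not chosen by expression or type. The YY1-type motif AAGATGG stood in 13 members (18.8%, against 7.28%) and the NRF1-type motif GCGCATGCG in 7 (10.1%, against 1.95%). At least 1 of the 3 motifs was present in 38 members (55.1%, against 17.8%). These are matches of letters and not measured binding. The sequences below are the 100 bases before the start of 5 members, 5′ to 3′ on the gene's strand, with motif matches in capitals. Mrpl42 and Mrpl20 are shown because they were higher in treated TFR cells and their stretch touches no annotated exon. Neither stretch holds a match, but the full window of Mrpl42 holds a YY1-type match. Of the 11 members higher in treated TFR cells 10 had a window, and 6 of these held at least 1 of the motifs. Mrpl52 is shown because it was higher in treated Tconv cells and holds a YY1-type and an ETS-type match. Mrpl43 and Mrps22 are examples of ETS-type matches.
Mrpl42 (chr10:95501950-95502049, minus strand): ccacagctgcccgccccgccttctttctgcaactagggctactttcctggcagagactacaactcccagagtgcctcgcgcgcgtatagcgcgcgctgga
Mrpl20 (chr4:155802778-155802877, plus strand): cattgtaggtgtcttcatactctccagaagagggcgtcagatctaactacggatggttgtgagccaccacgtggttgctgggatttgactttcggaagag
Mrpl52 (chr14:54426809-54426908, plus strand): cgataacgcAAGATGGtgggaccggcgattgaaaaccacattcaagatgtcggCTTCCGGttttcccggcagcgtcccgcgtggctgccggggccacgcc
Mrpl43 (chr19:45006443-45006542, minus strand): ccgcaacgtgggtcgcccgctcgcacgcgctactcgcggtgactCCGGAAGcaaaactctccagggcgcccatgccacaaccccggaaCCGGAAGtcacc
Mrps22 (chr9:98601680-98601779, minus strand): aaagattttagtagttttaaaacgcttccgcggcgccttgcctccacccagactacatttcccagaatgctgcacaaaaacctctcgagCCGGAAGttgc

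Every tested member was detected in every group, and levels per length spanned 19.5-fold. Per kilobase of exon and averaged over the 8 groups, the 77 tested members had a median of 7.95 CPM per kb (range 1.70 to 33.1), against 2.60 for all tested genes with an annotated length. The medians were 8.08 for Mrpl and 6.88 for Mrps genes. The highest were Mrpl54 at 33.1 CPM per kb, Mrpl52 at 27.4 and Mrpl18, which binds 5S ribosomal RNA in other ribosomes, at 25.1. The lowest tested members were Mrpl48 at 1.70 and Mrps10 at 1.74 CPM per kb, and the untested Mrpl53 was at 0.0732. The order of members was similar in all groups: Spearman's rho between group means over the 77 genes was 0.67 to 0.95 across the 28 pairs of groups, a description in which genes share libraries and lengths. The ratio of summed Mrpl to summed Mrps CPM, classed by symbol only, ranged from 1.57 to 2.18 over the 24 libraries, both ends in control TFH.

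The CPM of all 78 members were summed in each library. In control mice the sum was 1606, 1600 and 1918 CPM in Tconv, 1777, 1751 and 1768 in Treg, 1641, 1348 and 1617 in TFH and 1521, 1686 and 1592 in TFR libraries. In treated mice the values were 1988, 1927 and 1894 CPM in Tconv, 1749, 1738 and 1612 in Treg, 1507, 1406 and 1374 in TFH and 1939, 2134 and 2163 in TFR libraries. The 3 treated TFR libraries lay above all control TFR and all treated TFH and Treg libraries, and the treated TFH libraries lay below all libraries of the other 3 treated subsets. In bulk samples, fewer cells with a transcript and less transcript per cell cannot be told apart. Of the 77 tested members, 34 (44.2%) had their highest group mean in treated TFR cells, against 12.9% of all tested genes. None had its highest mean in treated TFH cells (13.8% of all genes), and 22 (28.6%) had their lowest there, against 6.34% of all genes.

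**Figure D1:**
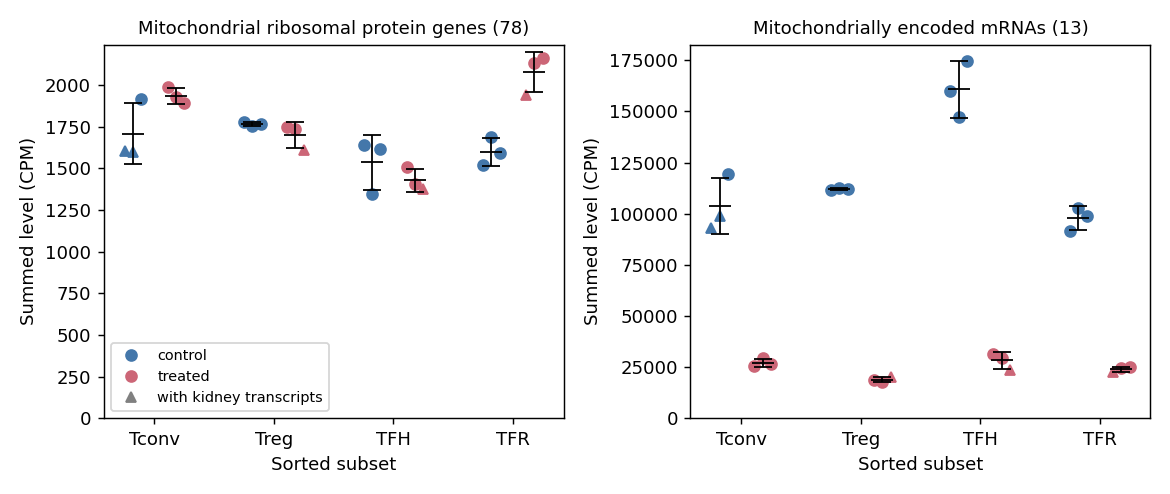
Summed CPM of the 78 mitochondrial ribosomal protein genes (left) and of the 13 mitochondrially encoded mRNAs (right) in each of the 24 libraries, by subset and treatment, with group mean and SD (n = 3) as bars and triangles for libraries with kidney transcripts. The ribosomal protein sums lie between 1348 and 2163 CPM, while the mitochondrial mRNAs are lower in every treated than in every control library.

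Single members varied most where libraries were shallow. The coefficient of variation between the 3 libraries of a group had a median over members of 55.5% in control TFH and 42.3% in control TFR, and of 6.51 to 14.2% in the other 6 groups. Over tested genes, edgeR's biological coefficient of variation was 1.05 in control TFH and 0.927 in control TFR, and 0.0750 to 0.742 in the others. The test shares 1 estimate of the spread among all groups (0.617 in common). The SEs of comparisons with control TFH or control TFR may therefore be too small. In control TFH 2, the library of 2.54 M counts, Mrps16 and Mrpl36 had 0 reads and Mrpl12 was at 0.386 CPM, while both other control TFH libraries had 20.02 and 34.2 CPM of Mrpl12. Comparisons that use these 6 libraries therefore rest on fewer reads than the others: the 78 members summed to 3490 to 23745 reads per control TFH library and 8403 to 15708 per control TFR library, against 40413 or more elsewhere.

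Treatment was compared with control within each subset to see which members follow OX40L and JAG1. In TFR cells 11 of the 77 tested members were higher in treated mice and 0 lower by edgeR's quasi-likelihood test (adjusted p below 0.05). Over all tested genes 15.6% were called higher and 6.39% lower, so the 14.3% of members called higher are near the background share. At an unadjusted p below 0.05 there were 17 members higher and 0 lower, against 25.3% and 9.93% of all genes, and DESeq2 called 14 higher and 0 lower, against 19.7% and 10.9%. The median log2 fold change over members was 0.40, as over all tested genes (0.40), and 61 of 77 values were positive. Among genes averaging at least 10 CPM, the range that holds 68 of the members, the median of all genes was 0.07, with 17.4% called higher and 12.8% lower.

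Of the large subunit genes, Mrpl18 (ENSMUSG00000057388, chr17:12911349-12916345) was at 17.5, 21.8 and 32.4 CPM in control TFR and at 52.3, 55.3 and 53.6 CPM in treated TFR libraries. All 3 treated values exceeded all control values, and the log2 fold change was 1.17 ± 0.20 (SE, n = 3 and 3, adjusted p = 0.00022). Mrpl42 (ENSMUSG00000062981, chr10:95480805-95501940), a protein with no bacterial counterpart, was at 18.8, 18.2 and 8.91 CPM in control and 38.1, 39.4 and 46.4 CPM in treated libraries. It rose by a log2 fold of 1.43 ± 0.28 (adjusted p = 0.00071), again without overlap between the groups. Mrpl20, which has a bacterial counterpart, was at 9.30, 15.7 and 16.1 CPM in control and 30.5, 34.1 and 36.5 CPM in treated libraries, a log2 fold of 1.30 ± 0.33 (adjusted p = 0.0069).

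Mrpl12, the counterpart of bacterial L7/L12 in the stalk of the large subunit, was at 19.9, 7.19 and 5.31 CPM in control TFR and 42.5, 46.3 and 53.7 CPM in treated TFR libraries. Its log2 fold was 2.12 ± 0.61 (adjusted p = 0.016), but the call was lost without control TFR 2 or without control TFR 3. In the other subsets Mrpl12 did not pass the test, with log2 fold changes of -0.05 in Tconv, -0.36 in Treg and 0.35 in TFH cells.

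Of the small subunit genes, Mrps34 (ENSMUSG00000038880, chr17:24895116-24897502) was at 12.4, 10.5 and 12.9 CPM in control and 23.6, 26.6 and 26.4 CPM in treated TFR libraries. The control values stood close together and well below the treated ones, with a log2 fold of 1.10 ± 0.24 (adjusted p = 0.0023). Exons of Nme3 and Mapk8ip3 overlap 37.0% of the exonic length of Mrps34 on the same strand and 63.4% on the other strand. Whether the counting used strand is not stated in any source at hand, and the reads of Mrps34 are uncertain with either setting. Mrps21, the counterpart of bacterial S21, was at 12.01, 5.88 and 8.34 CPM in control and 21.6, 20.3 and 24.4 CPM in treated libraries. Its log2 fold was 1.33 ± 0.36 (adjusted p = 0.010).

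The other 5 members called in TFR cells are named here after their values were seen. Mrpl36 had the largest fitted change, at 2.91, 2.61 and 0 CPM in control and 12.9, 12.9 and 13.6 CPM in treated libraries (log2 fold 2.79 ± 0.86, adjusted p = 0.023). Mrpl17 (log2 fold 1.10), Mrps5 (0.93), Mrps25 (1.44) and Mrpl10 (0.72) had adjusted p of 0.020 to 0.037. Exons of Nr2c2 on the other strand overlap 69.8% of the exonic length of Mrps25, so that value is uncertain. Without overlap between treated and control TFR libraries, 25 members were higher and 1 lower, against 33% and 10.4% of all tested genes.

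Of the 11 calls in TFR cells, 5 were left without the kidney libraries, against 9.09% of all genes higher and 3.25% lower: Mrpl18, Mrpl42, Mrps34, Mrpl20 and Mrpl12. The first 4 also passed under every other alternative tried, and the median of the members moved from 0.40 to 0.45. Depth moved with the treatment here, at 4.85 to 9.62 M counts in control and 35.4 to 50.9 M in treated TFR libraries, and its part in the result was not tested. The 6 CD8 and NK cell markers summed to 0.484 to 9.66 CPM in control and 64.3 to 71.4 CPM in treated TFR libraries. Of the 4 tested, 3 were higher, Nkg7 made up most of the sum at 55.8 to 59.3 CPM, Cd8a was at 0 in every TFR library and Ncr1 at no more than 0.0658 CPM. The 7 B cell markers summed to 4.55 to 27.0 CPM in control and 51.8 to 58.9 CPM in treated TFR libraries, mostly Cd22, with none of the 7 called. The part of such cells in the result was not tested.

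**Figure D2:**
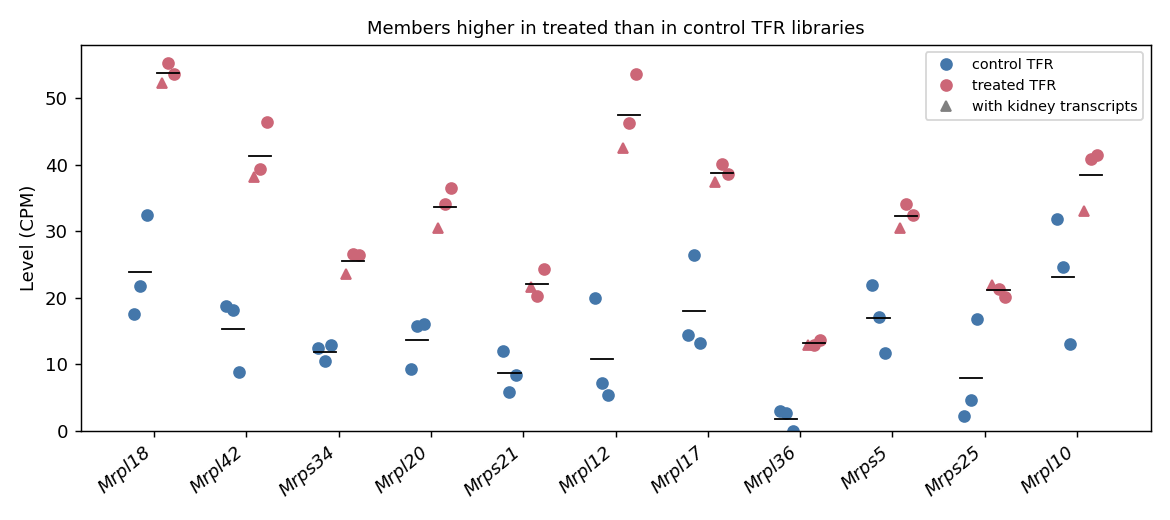
CPM in each control and treated TFR library of the 11 members called higher in treated TFR cells, in order of adjusted p, with short lines at the group means (n = 3) and triangles for the treated library with kidney transcripts. For each of the 11 all treated values lie above all control values, by a wide gap for Mrpl42, Mrps34 and Mrpl20 and narrowly for Mrpl10.

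In TFH cells 3 members were higher and 3 lower in treated mice, against 16.5% and 5.86% of all tested genes. The median member changed by -0.07 on the log2 scale while the median of all genes was 0.42, and 0.06 among genes of at least 10 CPM. The 3 that rose had low control values. Mrpl51 was at 6.43, 5.80 and 4.83 CPM in control and 16.7, 14.9 and 11.5 CPM in treated libraries (log2 fold 1.34 ± 0.35, adjusted p = 0.0089). Mrpl57 rose from 6.95, 9.66 and 3.95 CPM to 15.6, 14.3 and 17.4 CPM (1.24 ± 0.34, adjusted p = 0.012). Mrps16, the counterpart of bacterial S16, was at 7.13, 0 and 9.12 CPM in control and 19.6, 19.03 and 21.2 CPM in treated TFH libraries (1.78 ± 0.52, adjusted p = 0.017). None of these 3 overlapped between the groups.

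The 3 that fell were Mrpl44, Mrpl46 and Mrps9. Mrpl44, a protein with a ribonuclease III-like fold, was at 11.5, 31.7 and 30.2 CPM in control and 9.19, 7.67 and 9.89 CPM in treated libraries (log2 fold -1.45 ± 0.35, adjusted p = 0.0052). Mrpl46 was at 36.0, 52.9 and 36.6 CPM in control and 14.1, 15.7 and 20.1 CPM in treated libraries (-1.33 ± 0.36, adjusted p = 0.012), and 12.2% of its exonic length overlaps Mrps11 on the other strand. Mrps9, counterpart of bacterial S9, was at 64.3, 45.2 and 67.3 CPM in control and 42.2, 38.4 and 35.0 CPM in treated libraries (-0.62 ± 0.16, adjusted p = 0.0072). Without overlap 6 members were higher and 8 lower, against 28.5% and 6.81% of all genes. Without the kidney libraries Mrpl51 and Mrpl46 kept their calls, with adjusted p of 0.041 and 0.048, against 8.05% of all genes higher and 2.71% lower. In a fit of only the 2 groups Mrpl46 was the single call, against 9.1% of all genes higher and 2.4% lower. The CD8 and NK cell markers summed to 3.65 to 5.02 CPM in control and 78.2 to 89.6 CPM in treated TFH libraries. Nkg7 made up most of the treated sum at 71.7 to 84.8 CPM. The means of Cd8b1 and Klrb1c rose from 0.0227 and 0.0454 CPM to 3 and 1.55 CPM. That of Klrd1 fell from 3.35 to 0.902 CPM, and Cd8a and Ncr1 were at 0 in every TFH library. The part of such cells in the result was not tested.

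In Tconv cells 2 members were higher and 0 lower by the same edgeR test, against 6.89% and 3.05% of all tested genes; at an unadjusted p below 0.05 there were 7 higher and 0 lower, against 11.8% and 13.5%. Mrpl24 (ENSMUSG00000019710, chr3:87919506-87923672), counterpart of bacterial L24, was at 39.0, 44.4 and 51.5 CPM in control and 71.3, 71.4 and 66.9 CPM in treated libraries (log2 fold 0.64 ± 0.16, adjusted p = 0.012). Mrpl52 was at 17.8, 16.5 and 20.6 CPM in control and 40.7, 38.1 and 35.6 CPM in treated libraries (1.06 ± 0.33, adjusted p = 0.044). Both were without overlap, as were 20 members higher and 7 lower, against 27.5% and 15.4% of all genes. The 2 control Tconv libraries with kidney transcripts had the 2 lowest member sums of that group. Mrpl52 lost its call under 10 of 14 alternatives. Without the kidney libraries neither gene passed (adjusted p of 0.83 and 0.84), and the median of the members changed sign, from 0.11 to -0.08.

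In Treg cells 0 of 77 members were called in either direction by edgeR, against 5.17% of all genes higher and 3.56% lower. At an unadjusted p below 0.05, 1 member was higher and 2 lower, against 11.3% and 7.58% of all genes, and DESeq2 called 1 higher and 0 lower, against 9.15% and 5.67%. The median was -0.10 (all genes 0.09), with values from -0.74 to 0.60 and a median SE of 0.34. Without overlap 11 members were higher and 17 lower, against 27.4% and 19% of all genes. Fitted with only the Treg libraries, whose biological coefficient of variation was 0.354 and 0.401 against 0.617 over all groups, 6 members were called higher and 12 lower, against 20.8% and 20.1% of all genes in that fit.

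**Figure D3:**
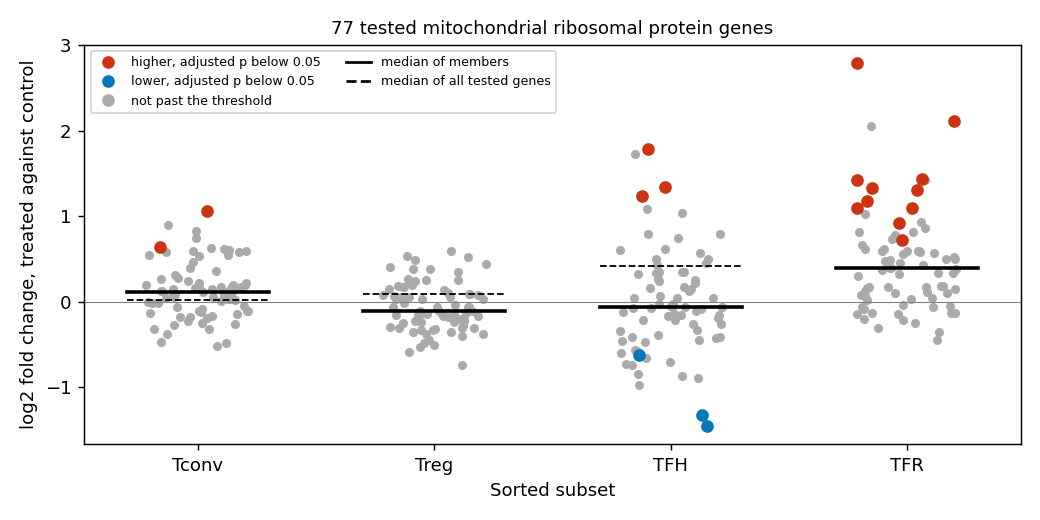
Log2 fold change of treated against control mice for each of the 77 tested members in each subset, with called members in red (higher) or blue (lower), the median of the members as a solid line and the median of all tested genes as a dashed line. The called members are 2 in Tconv, 0 in Treg, 3 higher and 3 lower in TFH and 11 in TFR cells, where both medians are 0.40 and the lines coincide.

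The treatment effects were also compared between a follicular subset and its non-follicular counterpart. In TFR against Treg cells 2 members were higher and 0 lower by edgeR, against 5.24% and 2.26% of all tested genes. At an unadjusted p below 0.05 there were 10 and 0, against 15.1% and 6.14% of all genes, and by DESeq2 4 and 0, against 8.41% and 5.54%. Mrps34 stood at 24.7, 23.7 and 24.3 CPM in control Treg and 20.3, 18.3 and 16.7 CPM in treated Treg libraries, so that all treated values were lower there and all were higher in TFR cells. The difference of the log2 folds was 1.496 ± 0.34 (adjusted p = 0.0093). Mrpl20 was at 21.9, 29.1 and 21.9 CPM in control and 23.2, 22.6 and 16.8 CPM in treated Treg libraries, where the groups overlapped, and its difference was 1.52 ± 0.46 (adjusted p = 0.047). That call was lost under 13 of 20 alternatives.

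In TFH against Tconv cells 0 members had a higher and 2 a lower treatment effect by edgeR, against 14.4% and 5.22% of all tested genes. At an unadjusted p below 0.05 there were 2 and 7, against 26% and 9.18% of all genes, and by DESeq2 3 and 3, against 17.7% and 6.68%. Mrps9 was at 46.2, 47.1 and 53.1 CPM in control and 62.9, 65.1 and 60.7 CPM in treated Tconv libraries, so that it lay higher there and lower in TFH cells (difference -0.99 ± 0.22, adjusted p = 0.0061). Mrpl24 was at 51.6, 56.8 and 71.9 CPM in control and 47.4, 45.1 and 51.0 CPM in treated TFH libraries (difference -0.97 ± 0.23, adjusted p = 0.0085). None of the 4 differences passed without the kidney libraries, with adjusted p of 0.11 to 0.33.

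Between the subsets of treated mice, most members had higher values in TFR than in TFH cells. In TFR against TFH libraries 66 of the 77 members were higher without overlap and 0 lower, against 21% and 20.8% of all tested genes, and 74 fitted values were positive, with a median of 0.57 (all genes -0.13). By the test 4 were higher and 0 lower, against 4.61% and 4.96% of all genes. At an unadjusted p below 0.05 there were 19 and 0, against 8.91% and 9.53%, and by DESeq2 13 and 0, against 7.32% and 8.08%. A fit of only these 2 groups called 47 higher and 0 lower, against 14% and 14.3% of all genes in that fit. Mrpl42 led, at 16.7, 12.03 and 17.6 CPM in treated TFH and 38.1, 39.4 and 46.4 CPM in treated TFR libraries (log2 fold 1.42 ± 0.27, adjusted p = 0.0012). Mrps11, counterpart of bacterial S11, was at 10.9, 8.57 and 15.6 CPM in TFH and 27.0, 27.8 and 27.0 CPM in TFR libraries (1.22 ± 0.31, adjusted p = 0.013). Mrpl18 and, named after its value was seen, Mrps9 were higher by 0.63 and 0.49 (adjusted p of 0.046 and 0.048), and the call of Mrpl18 was lost under 9 of 14 alternatives.

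Without the kidney libraries, 2 TFR and 2 TFH libraries of treated mice were left. Then 70 members were higher and 1 lower without overlap (33.1% and 31.6% of all genes), the median was 0.66 and Mrpl42 was the single call, against 2.16% of all genes higher and 2.15% lower. In control mice the same comparison had 6 members higher and 1 lower without overlap, against 5.76% and 4.77% of all genes, with a median of 0.04. By the test 4 were higher and 1 lower there, against 7.82% and 8% of all genes. Mrpl57 (log2 fold 1.79), Mrpl40 (1.45), Mrps16 (2.06) and Mrpl51 (1.38, named after its value was seen) were higher in control TFR, and Mrps25 was lower (-1.80). Mrpl40 was at 7.997, 7.73 and 19.1 CPM in control TFH and 21.2, 22.9 and 54.2 CPM in control TFR libraries, and its call was lost without control TFR 3. The call of Mrps25 was lost without control TFR 2 or without control TFH 2. A fit of only these control groups called 0 members, against 0.282% of all genes higher and 0.282% lower.

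**Figure D4:**
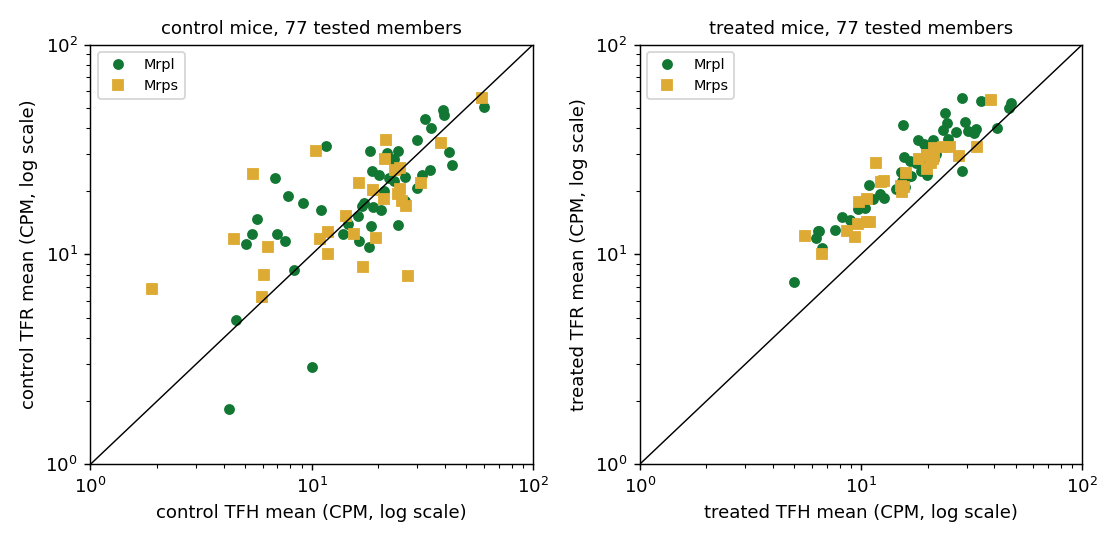
Mean CPM of each of the 77 tested members in TFR (vertical, log scale) against TFH libraries (horizontal, log scale) of control mice (left) and treated mice (right), n = 3 libraries each, with circles for Mrpl and squares for Mrps genes and the line of equal level. In treated mice 74 of 77 members lie above the line, and in control mice 43 do, with a wider scatter.

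In treated TFH against treated Tconv libraries 46 members were lower and 2 higher without overlap, against 26.3% and 28.6% of all genes, and 70 fitted values were negative, with a median of -0.44 (all genes 0.14). By the test 7 were lower and 1 higher, against 7.77% and 10.3% of all genes. A fit of only these 2 groups called 37 lower and 2 higher, against 24.4% and 25.4% of all genes in that fit. Mrpl30, counterpart of bacterial L30, was at 84.6, 88.8 and 82.1 CPM in treated Tconv and 24.996, 24.7 and 23.7 CPM in treated TFH libraries (log2 fold -1.80 ± 0.34, adjusted p = 0.00057). It was lower in control TFH as well, at 50.8, 53.4 and 62.5 CPM in control Tconv and 40.5, 7.34 and 12.5 CPM in control TFH libraries (-1.44 ± 0.35, adjusted p = 0.0045). Both calls for Mrpl30 held without the kidney libraries, and it was then the single member called in either arm, against 5.96% of all genes higher and 4.25% lower in treated mice and 3.81% and 4.73% in control mice. The call in control mice was lost in a fit of only the 2 groups. Mrps9 (-0.71) and Mrpl23 (-1.11) were also lower in treated TFH. Of the rest, Mrpl58, a peptidyl-tRNA hydrolase built into the ribosome, was lower by 0.90 on the log2 scale, at 45.1, 38.4 and 39.0 CPM in Tconv and 24.2, 20.7 and 20.9 CPM in TFH libraries (adjusted p = 0.011). Mrpl24, Mrps5 and Mrpl42 were the other 3, named after their values were seen.

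Mrpl4 went the other way, at 24.5, 22.2 and 24.9 CPM in treated Tconv and 38.6, 42.5 and 42.4 CPM in treated TFH libraries (log2 fold 0.79 ± 0.19, adjusted p = 0.0052). In control mice it was at 24.7, 26.6 and 25.5 CPM in Tconv and 39.5, 37.1 and 42.8 CPM in TFH libraries (0.64 ± 0.19, adjusted p = 0.019). Its libraries did not overlap in either arm. The control comparison of TFH with Tconv had 2 members higher (Mrpl4 and Mrpl44) and 4 lower (Mrpl30, Mrpl57, Mrpl40 and Mrpl51), against 9.89% and 15.1% of all genes. Without overlap 7 were higher and 12 lower, against 9.43% and 25.6% of all genes. The call for Mrpl4 did not pass without the kidney libraries, with adjusted p of 0.31 in control and 0.083 in treated mice, at log2 folds of 0.64 and 0.76.

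Against Treg cells, treated TFR libraries had 51 members higher and 1 lower without overlap (24.7% and 21.6% of all genes) and a median of 0.31 (all genes 0.12), but 0 members passed the edgeR test in either direction, against 1.78% and 2.83% of all genes. At an unadjusted p below 0.05 there were 7 higher and 0 lower, against 5.99% and 6.64%, and DESeq2 called 5 and 0, against 4.35% and 5.02%. A fit of only these 2 groups called 40 higher and 1 lower, against 19.4% and 21.8% of all genes in that fit. In control mice 0 were higher and 2 lower in TFR than in Treg cells (2 and 9 at an unadjusted p below 0.05, against 6.45% and 17.2% of all genes), against 2.28% and 7.46% of all genes by the test: Mrps34 (log2 fold -1.03 ± 0.24, adjusted p = 0.0092) and Mrps5 (-0.93 ± 0.29, adjusted p = 0.042). The call of Mrps5 was lost under 9 of 14 alternatives, and Mrps34 alone was called without the kidney libraries. Without overlap 3 were higher and 10 lower, against 6.16% and 17.4% of all genes. Mrps34 was thus at 23.7 to 24.7 CPM in control Treg, 10.5 to 12.9 CPM in control TFR and 23.6 to 26.6 CPM in treated TFR libraries.

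Between Treg and Tconv cells the edgeR test called 1 member in each arm. Mrps6 was at 10.8, 12.7 and 15.4 CPM in control Tconv and 30.4, 32.0 and 24.6 CPM in control Treg libraries (log2 fold 1.16 ± 0.29, adjusted p = 0.010), against 5.9% of all genes higher and 3.4% lower. That call was lost without control Tconv 1 and without the kidney libraries. Exons of other genes on the same strand overlap 19.9% of the exonic length of Mrps6, so its reads are uncertain. In treated mice Mrpl30 was lower in Treg, at 41.6, 43.0 and 39.0 CPM (-1.05 ± 0.34, adjusted p = 0.045), against 6.37% of all genes higher and 5.54% lower. That call was lost under 10 of 14 alternatives, among them the omission of any 1 library, relative log expression factors, the replicate block and the fit without the kidney libraries, which called 0 members. With relative log expression factors and with the replicate block, the single member called in treated mice was one higher in Treg. A fit of only these 2 treated groups called 9 higher and 28 lower, against 30.5% and 29.9% of all genes in that fit. DESeq2 called 1 higher and 4 lower in treated mice, against 11% and 7.95% of all genes. Without overlap 34 members were lower and 9 higher in treated Treg (30.1% and 27.8% of all genes).

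There were 8 members followed by name whatever their change. Mrpl12 and Mrpl58 are given above. Mrpl45, an anchor of the ribosome at the inner membrane, averaged 7.77 CPM in control TFH and 15.6 CPM in treated TFH libraries (log2 fold 1.03, adjusted p = 0.29). Mrps12, counterpart of the decoding protein S12, was at 0, 3.48 and 14.4 CPM in control TFH and between 8.22 and 9.22 CPM in treated TFH libraries, which shows how far the control TFH libraries spread. The S18 paralogs had log2 folds in TFR cells of -0.44 for Mrps18a, -0.05 for Mrps18b and 0.86 for Mrps18c. None of Mrpl45, Mrps12, Mrps27 or the 3 paralogs passed the test in any subset, with adjusted p of 0.13 or more.

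Members with and without a bacterial counterpart were compared by count, with Mrps36 placed in neither class. In TFR cells 8 of the 45 tested members with a counterpart and 3 of the 31 found only in mitochondria were higher, with medians of 0.48 and 0.18, against 15.6% of all genes higher. In the fit without the kidney libraries 3 and 2 were higher. In treated TFR against TFH cells the medians were 0.61 and 0.53. The difference between the classes was not tested.

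Other genes of mitochondrial translation are given by lists. Of the 5 ribosomal proteins with other symbols, Gadd45gip1 was higher in treated TFR cells, at 6.97, 7.63 and 9.66 CPM in control and 21.7, 25.3 and 25.5 CPM in treated libraries (log2 fold 1.58 ± 0.29, adjusted p = 0.00041). That call held under all 14 alternatives. All list counts below are to be read against 15.6% of all tested genes higher and 6.39% lower in TFR, 16.5% and 5.86% in TFH, 5.17% and 3.56% in Treg and 6.89% and 3.05% in Tconv cells. Of 16 translation factors 2 were higher and 0 lower in TFR cells: Gfm1, an elongation factor (0.83, adjusted p = 0.016), and Mrrf, the ribosome recycling factor (1.20, adjusted p = 0.035). Neither passed without the kidney libraries, and Mrrf was lost under 8 of 14 alternatives. In the other subsets 1 factor was called: Oxa1l, the inner membrane insertase, which was lower in Treg cells (-0.47, adjusted p = 0.039) and lost its call under 9 of 14 alternatives. Of a list of 20 mitochondrial tRNA synthetase and amidotransferase genes, 1 was higher and 1 lower in each follicular subset and 0 in Tconv and Treg cells. Tars2 was the lower one in both (-0.52 in TFH, adjusted p = 0.0088, and -0.63 in TFR, adjusted p = 0.0016). Mars2 was higher in TFH (1.53, adjusted p = 0.00083) and Ears2 in TFR cells (1.90, adjusted p = 0.039), the latter lost under 7 of 14 alternatives. Mars2 in TFH and Tars2 in TFR cells were the 2 calls left in these subsets without the kidney libraries.

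Of 25 ribosome assembly factors, 1 was higher and 6 were lower in treated TFH cells, with a median of -0.46. Mterf3, which acts in assembly and mitochondrial transcription, was at 50.6, 85.0 and 54.9 CPM in control and 26.8, 26.9 and 21.7 CPM in treated TFH libraries (log2 fold -1.33 ± 0.22, adjusted p = 0.00018). Gtpbp10, a GTPase of large subunit assembly, was at 31.8, 24.3 and 18.7 CPM in control and 8.03, 12.1 and 6.92 CPM in treated TFH libraries (-1.47 ± 0.32, adjusted p = 0.0024). In TFH cells 0 factors were higher and 2 lower without the kidney libraries, and Gtpbp10 passed neither there nor in a fit of only the 2 groups. In TFR cells 1 factor was higher and 3 were lower, among them Nsun4 (-0.96, adjusted p = 0.0012) and Malsu1 (-1.19, adjusted p = 0.0065), and in Tconv and Treg cells 0 were called. Malsu1, which keeps the subunits apart during assembly, was at 27.8, 39.3 and 31.3 CPM in control and 14.3, 13.2 and 15.5 CPM in treated TFR libraries. Nsun4 was the single factor called in TFR cells without the kidney libraries. Of 17 genes for replication and expression of mitochondrial DNA, 3 were higher and 1 lower in TFH, 3 higher and 3 lower in TFR, 1 higher in Treg and 0 called in Tconv cells. Mtpap, the mitochondrial poly(A) polymerase, was lower in TFH (-0.80, adjusted p = 0.0013) and TFR cells (-0.61, adjusted p = 0.0091). Polg, the DNA polymerase, was lower in TFR cells (-0.51, adjusted p = 0.0088), and Polg2, its accessory subunit, was higher in Treg cells (0.81, adjusted p = 0.0037). Mterf1b was called higher in TFH cells, with control libraries too low for a fold to be given. Mtpap in TFH and Polg2 in Treg cells were the calls left without the kidney libraries, and 0 of the 17 were called in TFR and Tconv cells.

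Most mRNAs that this ribosome translates were lower in treated mice in every subset. Of the 13 mitochondrially encoded mRNAs, 12 were lower in treated Tconv, Treg and TFH cells and 11 in TFR cells, with medians of -2.02, -2.45, -2.47 and -1.83. With the kidney libraries omitted, 11 were lower in Treg, 11 in TFH and 10 in TFR cells, against 1.65%, 2.71% and 3.25% of all genes. For Tconv cells that fit holds a single control library. Under the alternatives, the log2 fold in Tconv cells ran from -2.11 to -1.73 for mt-Co1 and from -2.20 to -1.91 for mt-Nd1. The sum of these mRNAs divided by the sum of the 78 members was 60.6 ± 2.3 (SD, n = 3) in control Tconv, 63.5 ± 0.74 in Treg, 105 ± 6.4 in TFH and 61.1 ± 1.0 in TFR libraries. In treated mice the ratio was 13.99 ± 1.2, 11.1 ± 1.3, 19.8 ± 2.2 and 11.6 ± 0.13, so that all 12 treated values lay below all 12 control values. Mitochondrial genes made up 9.50 to 16.9% of all counts in control and 1.85 to 3.17% in treated libraries. In a fit without mitochondrially encoded, receptor and globin genes, treatment called 14 members higher and 0 lower in TFR cells. The counts were 3 and 3 in TFH, and 1 and 0 in both Tconv and Treg cells. They stand without shares of all genes and are not read as a result about the members. The part of the mitochondrial share in the changes of the other genes was not tested further. Of single mRNAs, mt-Co1 (cytochrome c oxidase subunit I) was at 34651 to 66435 CPM in control and 6575 to 13757 CPM in treated libraries. mt-Nd1 (a complex I subunit) was at 8025 to 17176 CPM in control and 1739 to 3103 CPM in treated libraries.

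Nuclear genes of the respiratory chain and ATP synthase, and cytosolic ribosomal proteins, were set beside the family. In TFR cells 24 of 45 respiratory chain genes and 69 of 74 cytosolic ribosomal protein genes were higher, with medians of 0.64 and 0.74, and 0 of either list was lower. These counts were 14 and 67 without the kidney libraries. In Tconv cells 58 cytosolic ribosomal protein genes were higher and 0 lower, with a median of 0.56, while 3 respiratory chain genes were higher and 1 lower. With the kidney libraries left out, fewer genes of either list were called in Tconv cells. That fit holds a single control Tconv library, and fewer of all genes were called in it too. The drop is therefore not read as a result about these lists. In treated TFR against treated TFH cells 16 respiratory chain and 62 cytosolic ribosomal protein genes were higher, with medians of 0.58 and 0.59, beside 0.57 for the mitochondrial ribosomal proteins, against 4.61% of all genes higher. The counts were 6 and 57 without the kidney libraries. Whether the family differed from these lists was not tested.

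**Figure D5:**
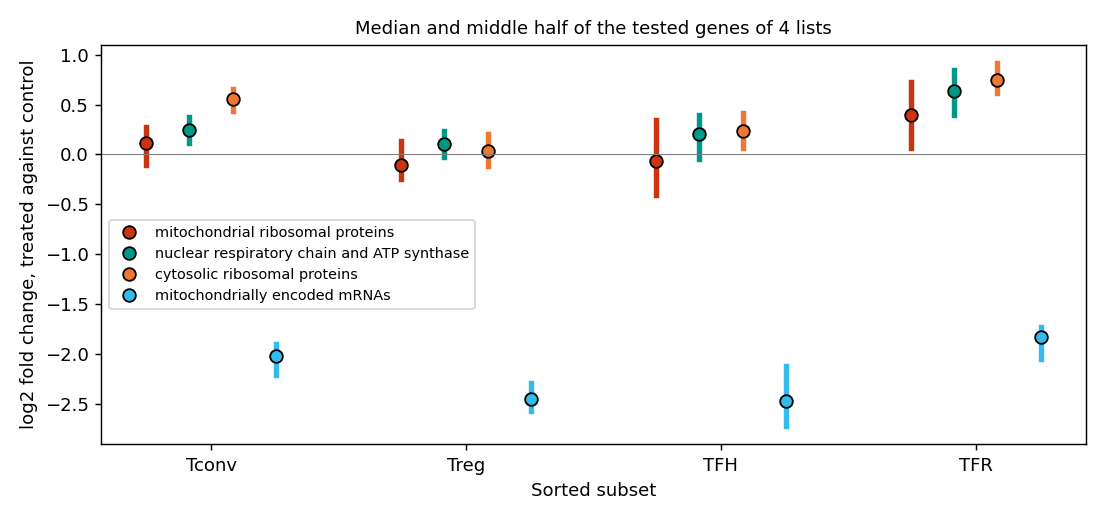
Median (circle) and middle part of the values from the lower to the upper quartile (bar) of the log2 fold change of treated against control mice, for the tested genes of 4 lists in each subset. Mitochondrially encoded mRNAs lie between -2.47 and -1.83 in all subsets, and the 3 nuclear lists have their highest medians in TFR cells (0.40, 0.64 and 0.74).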

How the data were processed

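Libraries came from column-purified, DNase-treated total RNA, using CORALL chemistry after RiboCop rRNA removal, per the labels' protocols. The notes of the submitters on processing name STAR, featureCounts and mm10, and no source at hand gives their versions, the annotation release or the strand setting. What the authors deposited is one table of raw counts, genes by libraries. Gene IDs were matched without version to GENCODE M21 (38872 of 39056 matched, 184 did not).

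Genes were tested with edgeR 4.0.16 (R 4.3.3): filterByExpr by group, TMM factors, 1 model of 8 group means over all 24 libraries, two-sided quasi-likelihood F tests and Benjamini-Hochberg adjustment over 18789 genes, with a threshold of 0.05. The 14 comparisons were 4 of treatment, 8 between subsets and 2 differences of treatment effects. Groups do not overlap where every library of one exceeds every library of the other. The script was tested on simulated data. No libraries were merged, since the most similar pair within any group still had a chi-square of 4.52 per degree of freedom. Library totals ranged from 2.54 to 53.8 M counts.

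The members and lists were chosen with earlier results of these data known. Named are up to 5 called members per direction and treatment comparison, up to 3 per direction in each comparison between subsets, up to 3 per difference of treatment effects, by smallest p, the 3 highest and 3 lowest per kb, 8 fixed by name, and up to 2 genes per related list and treatment comparison. Other settings tried were DESeq2 1.42.0, relative log expression factors, a fit without the low-count filter, a fit of only the groups compared, a block on replicate number, a fit without mitochondrially encoded, receptor and globin genes, and the omission of each library in turn. Added after seeing the data were the fit without libraries whose proximal tubule markers sum to over 50 CPM, and a minimum mean of 10 CPM.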

Additional observations from a re-analysis of the deposited data

Results flagged for a closer look

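By the test, treatment effects differed for 4 members between a follicular subset and its non-follicular counterpart (difference of log2 fold changes in edgeR, n = 3 libraries per group). The 2 members called in each are 2.60% of the 77, below the 5.24% of all genes with a higher effect in TFR than in Treg cells and the 5.22% with a lower effect in TFH than in Tconv cells. In TFR against Treg cells the difference of log2 fold changes was 1.5 for Mrps34 and 1.52 for Mrpl20. In TFH against Tconv cells it was -0.99 for Mrps9 and -0.97 for Mrpl24. Without the kidney libraries the differences, in the same order, were 1.48, 1.46, -0.81 and -0.83, with adjusted p of 0.11, 0.25, 0.33 and 0.31 in edgeR. Exons of other genes overlap 37.0% of the exonic length of Mrps34 on the same strand and 63.4% on the other strand. For Mrpl24 the overlap is 26.3%, on the other strand.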

How the results depend on the processing

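Counts below are of members called in both directions together, with the split by direction added for some. The cause of each change was not tested. A count without a share of all genes beside it is not read as a result about the members. With relative log expression factors the count was 1 for treatment in Tconv and 1 for the difference TFR against Treg. Without a low-count filter it was 1 in Tconv, 0 in control TFR against Treg, 1 in treated TFR against TFH and 0 for the difference TFR against Treg. Without mitochondrially encoded, receptor and globin genes it was 1 in Tconv and 1 in Treg. With only the groups compared, treatment gave 24 in Tconv (14 higher and 10 lower) and 18 in Treg (6 higher and 12 lower). It gave 1 in TFH, which was lower, and 7 in TFR, all higher. Of all genes in these fits, 16.6% were higher and 20.2% lower in Tconv, and 20.8% and 20.1% in Treg. In TFH the shares were 9.1% and 2.4%, and in TFR 14% and 7.08%. In fits of only the groups compared, control mice gave 4 for Treg against Tconv (3 higher and 1 lower), against 12.9% of all genes higher and 8.96% lower. They gave 0 each for TFR against Treg, TFH against Tconv and TFR against TFH. In that order 1.57%, 4.39% and 0.282% of all genes were higher and 1.94%, 7.5% and 0.282% lower. In the same kind of fit, treated mice gave 37 for Treg against Tconv, against 30.5% of all genes higher and 29.9% lower. They gave 47 for TFR against TFH, all higher (14% and 14.3%). For TFH against Tconv they gave 39, with 2 higher and 37 lower (25.4% and 24.4%). TFR against Treg gave 41, with 40 higher and 1 lower (19.4% and 21.8%). The difference TFR against Treg gave 4, all higher (9.8% and 5.24%). DESeq2 gave 1 for treatment in Treg and 14 in TFH (5 higher and 9 lower), against 9.15% and 21% of all genes higher and 5.67% and 9.27% lower. For control mice DESeq2 gave 15 for TFR against TFH (9 higher and 6 lower), against 13.1% of all genes higher and 12.2% lower. It gave 11 for TFH against Tconv, with 4 higher and 7 lower (13.1% and 20.4%). For TFR against Treg it gave 6, with 2 higher and 4 lower (6.3% and 10.2%). For treated mice DESeq2 gave 5 for Treg against Tconv, against 11% of all genes higher and 7.95% lower. It gave 13 for TFR against TFH (7.32% and 8.08%) and 5 for TFR against Treg (4.35% and 5.02%). The differences gave 6 for TFH against Tconv (17.7% and 6.68%) and 4 for TFR against Treg (8.41% and 5.54%). Without the kidney libraries, treatment gave 0 in Tconv, 2 in TFH and 5 in TFR. Control mice then gave 0 for Treg against Tconv, 1 for TFH against Tconv and 1 for TFR against Treg. Treated mice gave 0 for Treg against Tconv, 1 for TFR against TFH and 1 for TFH against Tconv, and both differences gave 0. With a minimum mean of 10 CPM, counts were 8 for control TFR against TFH, 10 for control TFH against Tconv, 3 for treated Treg against Tconv and 7 for treated TFR against TFH.

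Leaving out 1 library at a time, treatment gave 0 to 1 in Tconv, 0 in Treg, 6 to 17 in TFH and 7 to 12 in TFR. Control mice gave 0 to 1 for Treg against Tconv, 7 to 16 for TFR against TFH, 4 to 15 for TFH against Tconv and 1 to 6 for TFR against Treg. Treated mice gave 0 for Treg against Tconv, 1 to 2 for TFR against TFH, 4 to 6 for TFH against Tconv and 0 for TFR against Treg. The differences gave 2 to 8 for TFH against Tconv and 1 to 5 for TFR against Treg. Same-numbered libraries did not deviate together in all 3 pairs of any comparison, so the numbers were not taken as pairs. Their deviations were still strongly correlated, with mixed signs, in treated TFR against TFH (r of -0.84, 0.80 and -0.89 for numbers 1 to 3). In treated TFR against Treg r was -0.94, 0.87 and -0.92. Kidney transcripts were in treated TFR 1, treated TFH 3 and treated Treg 3. The tests take all libraries as independent, and whether they are was not tested. With the replicate number as a block 10 members were called higher for treatment in TFR. Of the 63 called gene results none changed direction under any alternative, and 33 no longer passed without the kidney libraries, 24 with only the groups compared, 14 without the filter and 2 with the block. The median over members kept its sign under all 14 alternatives for treatment in TFR (0.32 to 0.50) and for treated TFR against TFH (0.52 to 0.66), and changed sign under 2 for treatment in Tconv and 1 in TFH. Library totals were 2.54 to 15.2 M counts in control TFH and TFR, and what depth limits was not tested.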
